A study of Mus musculus with 6 samples.

Results

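Transcripts of 10 macrophage genes were followed in RNA from 6 samples of mouse CD4 T cells. These genes, C1qa, C1qb, C1qc, Adgre1, Vcam1, Cd5l, Spic, Csf1r, Hmox1 and Lyz2, were found by symbol among 54532 gene rows, and all 10 were present and above the filter on low values. They were selected on their FPM values in these same 6 libraries, over which 9 of them ranged 3.62-fold to 4.91-fold and Lyz2 25.4-fold, so that this spread is described here and not tested. The samples were 3 labelled Prmt5 KO (replicates 1, 4 and 5, genotype label iCD4-PRMT5 delta/delta), and 3 labelled WT (replicates 1, 2 and 4, genotype label iCD4-PRMT5fl/fl). Cells of all 6 came from the spleens and lymph nodes of C57BL/6 mice. The treatment label of all 6 names antibodies to CD3 and CD28 for 48 h, whereas all 6 titles and the names of their value columns carry the word rest. The activation state is thus uncertain, with the same labels in both groups. The sources used here do not give ages, what iCD4 stands for, what drives the deletion, or how the cells were separated. A library code splits the samples into series 22 (KO 1, WT 1 and WT 2) and series 24 (KO 4, KO 5 and WT 4).

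Red pulp macrophages of the spleen engulf aged red blood cells, break down haem and return iron to the blood. The transcription factor SpiC is needed for their development in mice, and the surface proteins F4/80 and VCAM1 mark them. Splenic macrophages are also a main source of C1q, the recognition molecule of the classical complement pathway, which is assembled from 3 kinds of chain. Which cells the transcripts measured here came from was not tested. In bulk RNA, fewer cells of a type and less RNA per cell cannot be told apart.

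Values are the deposited robust FPM, fragments assigned to a gene after scaling by robust size factors, with n = 3 libraries per group. Sequencing depth is unknown. Prmt5, the deleted gene, measured 24.4, 23.8 and 21.5 FPM in KO 1, KO 4 and KO 5, against 34.9, 41.0 and 43.9 FPM in WT 1, WT 2 and WT 4, in the direction of the labels. The summed level of 13 T cell markers was 4102 to 4918 FPM in KO libraries and 3779 to 4854 FPM in WT libraries. WT 1 stood apart: 21275 genes reached 1 FPM there, against 13876 to 15003 in the other 5 libraries. At 1413 olfactory and vomeronasal receptor genes, which lymphocytes are not expected to use, WT 1 had 0.301 FPM per kb of exon, against 0.0145 to 0.085 in the others. That rate would account for 0.87% (C1qa) to 7.01% (Spic) of the value of each macrophage gene in WT 1.

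The 3 C1q chain genes lie side by side within 18.7 kb of chromosome 4 (136880129 to 136898803 on GRCm38, minus strand). RefSeq (GRCm38.p6) gave a promoter window, from 250 bases before the transcript start to 50 after it, for 5 of the 10 genes, namely C1qb, C1qc, Cd5l, Spic and Lyz2. The windows of C1qb, C1qc, Cd5l and Lyz2 are shown because they hold a match, and because C1qb, C1qc and Cd5l ranged 3.62-fold to 4.91-fold over the libraries and Lyz2 25.4-fold. Capitals mark the PU.1 core GAGGAA (reverse TTCCTC) and the antioxidant response core TGACNNNGC (reverse GCNNNGTCA), on either strand. PU.1 is a transcription factor of the macrophage lineage, and the antioxidant response element is bound by NRF2 and BACH1, which control haem oxygenase. The sequences are written 5′ to 3′ on the strand of the gene.
C1qb, chr4:136886151-136886450, minus strand: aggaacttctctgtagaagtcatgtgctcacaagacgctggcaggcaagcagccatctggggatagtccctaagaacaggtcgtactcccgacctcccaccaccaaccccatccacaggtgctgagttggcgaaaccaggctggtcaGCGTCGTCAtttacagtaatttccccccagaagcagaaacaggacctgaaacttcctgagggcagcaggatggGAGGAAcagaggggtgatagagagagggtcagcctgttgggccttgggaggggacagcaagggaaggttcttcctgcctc
C1qc, chr4:136892865-136893164, minus strand: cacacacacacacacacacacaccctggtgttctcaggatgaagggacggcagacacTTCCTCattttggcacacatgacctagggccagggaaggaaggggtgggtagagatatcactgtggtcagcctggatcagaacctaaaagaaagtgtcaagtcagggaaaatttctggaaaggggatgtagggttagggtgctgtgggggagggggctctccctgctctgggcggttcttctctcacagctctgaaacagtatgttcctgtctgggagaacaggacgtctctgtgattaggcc
Cd5l, chr3:87357631-87357930, plus strand: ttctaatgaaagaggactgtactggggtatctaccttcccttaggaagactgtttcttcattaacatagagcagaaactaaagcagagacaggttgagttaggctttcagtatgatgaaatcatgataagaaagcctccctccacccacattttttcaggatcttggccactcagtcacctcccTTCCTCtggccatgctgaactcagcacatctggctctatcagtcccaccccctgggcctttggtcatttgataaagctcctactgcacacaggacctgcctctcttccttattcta
Lyz2, chr10:117282223-117282522, minus strand: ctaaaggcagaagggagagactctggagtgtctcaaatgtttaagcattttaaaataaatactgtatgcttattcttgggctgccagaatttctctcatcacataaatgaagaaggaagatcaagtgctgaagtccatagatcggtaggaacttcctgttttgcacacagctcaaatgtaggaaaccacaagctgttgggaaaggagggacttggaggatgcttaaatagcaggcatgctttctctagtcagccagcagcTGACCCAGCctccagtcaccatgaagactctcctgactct

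The PU.1 core was found in 3 of the 5 windows (C1qb, C1qc and Cd5l) and in 28.3% of 32851 promoter windows of the same length. The antioxidant response core was found in 2 of 5 windows and 12.4% of all, in C1qb and Lyz2. No window held TGANTCA, TTGCNNAA (reverse TTNNGCAA), CACGTG or TATAAA (reverse TTTATA), which stood in 7.81%, 10.8%, 7.15% and 13.6% of all windows. No motif matches overlapped in these 5 windows. These matches describe letters and not bound sites.

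C1qa, C1qb and C1qc encode the A, B and C chains of C1q. C1qa measured 96.2, 94.2 and 142.0 FPM in KO 1, KO 4 and KO 5, against 36.0, 60.8 and 115.1 FPM in WT 1, WT 2 and WT 4. C1qb measured 15.5, 13.3 and 23.5 FPM in the KO libraries, against 6.1, 10.2 and 18 FPM in the WT libraries. C1qc measured 66.5, 74.0 and 89.9 FPM in the KO libraries, against 24.8, 42.8 and 76.6 FPM in the WT libraries. In all 3 genes KO 5 was highest and WT 4 next, KO 1 and KO 4 lay between in either order, and WT 2 and WT 1 were lowest, so that the groups overlapped.

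Adgre1 encodes F4/80, the adhesion receptor that defines many mouse tissue macrophages (chromosome 17, 57358691 to 57483527, plus strand). Adgre1 measured 69.5, 74.5 and 123.6 FPM in the KO libraries, against 26.4, 44.5 and 98.5 FPM in the WT libraries. Vcam1 encodes an adhesion molecule that binds integrin α4β1 and is carried by red pulp macrophages as well as activated endothelium (chromosome 3, 116109949 to 116129688, minus strand). Vcam1 measured 256.7, 227.2 and 411.2 FPM in the KO libraries, against 104.0, 159.3 and 343.5 FPM in the WT libraries. Csf1r encodes the receptor for CSF1, on which macrophages depend for survival (chromosome 18, 61100598 to 61132149, plus strand). It measured 119.2, 115.6 and 227.9 FPM in the KO libraries, against 50.3, 77.4 and 173.3 FPM in the WT libraries. In all 3, as in the C1q genes, KO 5 and WT 4 were highest and WT 2 and WT 1 lowest, with KO 1 and KO 4 between. The annotation of Csf1r overlaps 2 other genes, and that of Vcam1 overlaps 1 antisense gene, and the sources used here do not say if counting was strand-aware.

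Cd5l encodes a secreted inhibitor of apoptosis made by tissue macrophages (chromosome 3, 87357881 to 87371073, plus strand). Cd5l measured 59.7, 63.9 and 138.5 FPM in the KO libraries, against 28.2, 55.3 and 91.0 FPM in the WT libraries. Spic (chromosome 10, 88674772 to 88685015, minus strand) measured 41.5, 32.9 and 62.4 FPM in the KO libraries, against 16.5, 26.3 and 48.5 FPM in the WT libraries. Hmox1 encodes haem oxygenase 1, which opens the haem ring and frees its iron (chromosome 8, 75093621 to 75100589, plus strand). It measured 86.6, 82.0 and 107.9 FPM in the KO libraries, against 23.9, 47.6 and 84.5 FPM in the WT libraries. WT 4 lay above KO 4 and below KO 1, so that the groups overlapped by 1 pair of libraries. Under scaling of each library to the same gene sum they no longer overlapped, which held for 1 of the 10 genes and for 4.38% of genes tested under that scaling. KO 4 and WT 4 then differed by less than the rounding of the values to 1 decimal, so that this is not read as a separation.

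Lyz2 encodes lysozyme M, an enzyme of macrophages, monocytes and neutrophils (chromosome 10, 117277331 to 117282321, minus strand). Lyz2 measured 66.5, 128.3 and 482.5 FPM in KO 1, KO 4 and KO 5, against 19.0, 23.6 and 204.2 FPM in WT 1, WT 2 and WT 4. The order of the libraries was that of C1qc, Adgre1 and Cd5l, with all of series 24 above all of series 22, over a wider range. For the other 6 genes KO 1 lay above KO 4. The neighbouring paralog Lyz1 measured 0.2 to 0.6 FPM in all libraries. The sources used here do not say how reads matching both copies were counted.

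**Figure D1:**
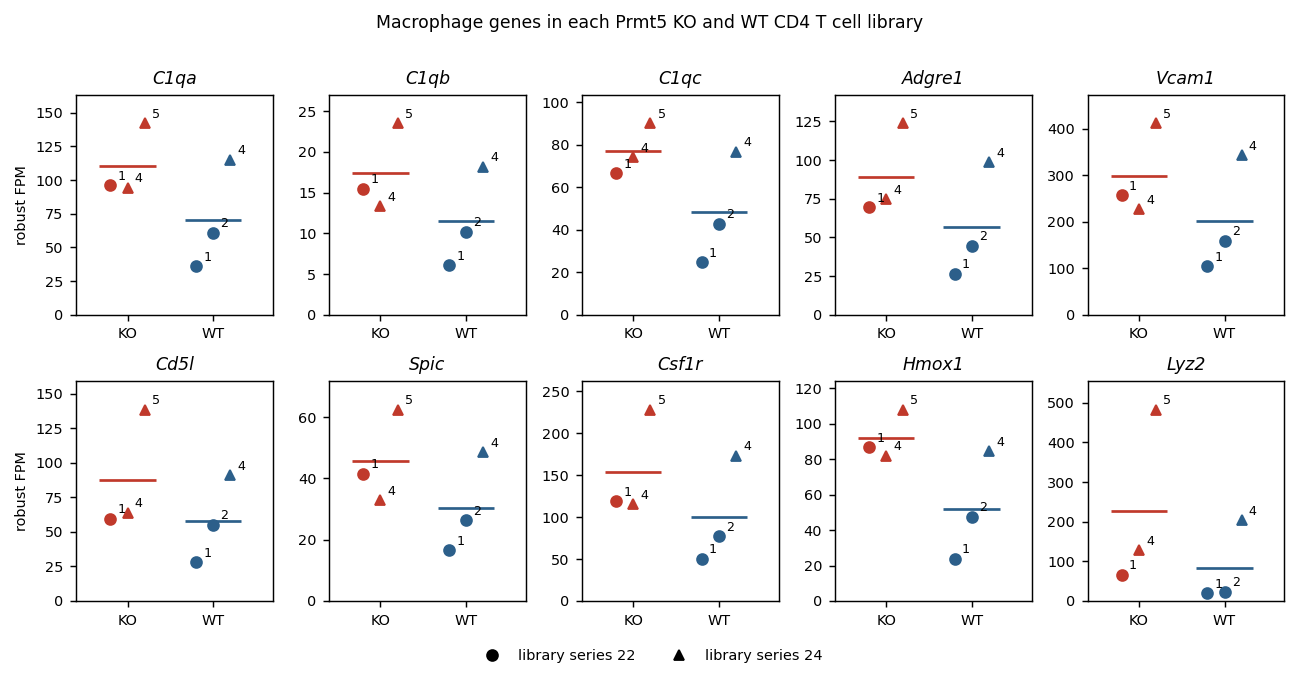
Robust FPM of each of the 10 macrophage genes (vertical axes, each from 0) in the 3 KO and the 3 WT libraries. Points are single libraries with their replicate number, circles are library series 22 and triangles series 24, and lines are group means. KO 5 was highest and WT 1 lowest in all 10 panels, and the KO and WT points overlapped in each.

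WT 1 was the lowest and KO 5 the highest library for 10 of the 10 genes, a pair of extremes shared by 6.6% of 14944 genes tested (those with a mean of at least 1 FPM). WT 2 was second lowest for 10 (28.4% of genes tested) and WT 4 second highest for 9 (27.3%), with Hmox1 as the exception. The highest library exceeded the lowest by 3.62-fold for C1qc, the smallest of the members, to 4.91-fold for Cd5l, and by 25.4-fold for Lyz2. At least a 4-fold range was reached by 5 of the 10 genes and by 9.05% of genes tested. Vcam1 at 3.95-fold lay just under that value and Hmox1 at 4.51-fold just over it. Without WT 1 the range was between 2.1-fold (C1qc) and 2.94-fold (Csf1r) for 9 genes and stayed at 20.4-fold for Lyz2.

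Of the 7 genes outside the C1q locus, 6 varied at most 1.62-fold in proportion to C1q from library to library, and Lyz2 varied more. All 7 were selected on their values in these same libraries, which favours steady ratios, so that the ratios are a description only. Relative to the summed FPM of the 3 C1q genes in the same library, C1qa made up 0.519 to 0.556, C1qb 0.0733 to 0.0920 and C1qc 0.352 to 0.408, shares that are narrowed because these genes are part of the sum. Over the 6 libraries the ratio to the C1q sum varied 1.24-fold for Adgre1, 1.31-fold for Vcam1, 1.36-fold for Spic, 1.36-fold for Hmox1, 1.40-fold for Csf1r and 1.62-fold for Cd5l. Vcam1 over Spic stayed between 6.06 and 7.08, although both genes ranged nearly 4-fold in level. These genes lie on 6 chromosomes.

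Lyz2 over the C1q sum was 0.373, 0.707 and 1.89 in KO 1, KO 4 and KO 5, against 0.284, 0.207 and 0.973 in WT 1, WT 2 and WT 4. The ratio thus ranged 9.11-fold, and 4.69-fold without KO 5. It was 0.207 to 0.373 in series 22 and 0.707 to 1.89 in series 24, with no overlap between the series, as was the case for Adgre1 over a much narrower range. Within series 24 the KO libraries lay on either side of WT 4.

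**Figure D2:**
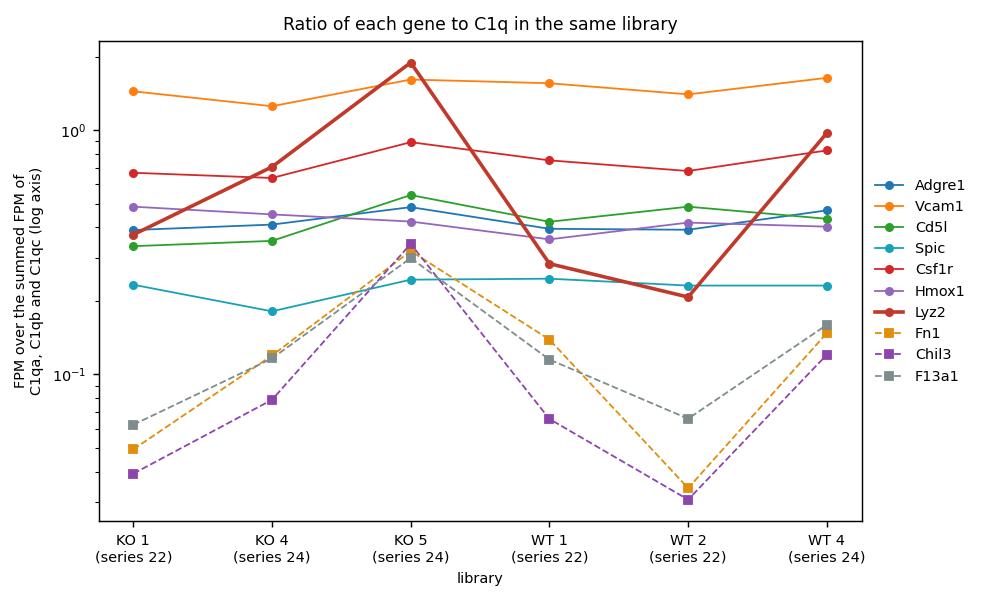
FPM of each gene divided by the summed FPM of C1qa, C1qb and C1qc in the same library (vertical axis, log scale) for the 3 KO and then the 3 WT libraries, with lines joining the points of 1 gene. Solid lines are the other 7 genes of the list and dashed lines are Fn1, Chil3 and F13a1 of the monocyte list; Lyz2 ranged from 0.207 to 1.89, whereas Adgre1 stayed between 0.390 and 0.484.

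Levels can be compared between genes per kb of exon. On that scale Lyz2 was the highest of the 10 genes in all 3 libraries of series 24, at 97.5 and 367 FPM per kb in KO 4 and KO 5 and 155 FPM per kb in WT 4. C1qa was the highest in all 3 of series 22, at 92.5 FPM per kb in KO 1, against 34.6 and 58.5 in WT 1 and WT 2, where Lyz2 had 50.5 in KO 1, against 14.4 and 17.9 FPM per kb in WT 1 and WT 2. In WT 2 Lyz2 stood in place 6 of the 10. Spic was lowest and C1qb next to lowest in every library. As means over the 6 libraries, Lyz2 had 117.0, C1qa 87.2, Hmox1 41.2 and Cd5l 35.7 FPM per kb, and the mean of Lyz2 rests on series 24. C1qc stood at 32.3, Vcam1 at 28.2, Adgre1 at 22.5, Csf1r at 22, C1qb at 13.3 and Spic at 9.90 FPM per kb. The C1q chains are used in equal numbers in the protein, yet the level of C1qa per kb was 6.56 times that of C1qb and 2.70 times that of C1qc. The FPM ratio of C1qa to C1qb was 5.90 to 7.08 in every library, so that this gap did not vary much between them. Exon length was the union of all annotated exons, and a gene with long, little used exons reads lower on this scale. Summed, the 10 genes took 0.0959%, 0.103% and 0.211% of the gene total in KO 1, KO 4 and KO 5, against 0.0351%, 0.0625% and 0.138% in WT 1, WT 2 and WT 4.

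The study's comparison asks which transcripts differ between Prmt5 KO and WT samples. All 10 macrophage genes had a higher mean in KO and 0 passed the test, where 0.0% of all genes passed. Of 14944 genes, limma with library series as a term called 0 at an adjusted p below 0.05, with 37 genes (0.248%) at an unadjusted p under 0.05, none of them among the 10. Evenly spread p-values would put a share of 0.05 of all genes there, so that the p-values of this fit run high. The reason was not tested, and unadjusted p-values are not read at face value. The deleted gene Prmt5 itself was not called, with a log2 change of -0.78, an unadjusted p of 0.00049 and an adjusted p of 1 by limma, so that 0 calls do not show an absence of change. C1qa averaged 110.8 ± 27.0 FPM in KO and 70.6 ± 40.5 FPM in WT (SD, n = 3 each), a log2 change of 0.52 (SE 0.296, 95% interval -0.17 to 1.20, limma adjusted p = 1). Hmox1 averaged 92.2 ± 13.8 FPM in KO and 52.0 ± 30.5 FPM in WT (SD, n = 3 each), a log2 change of 0.75 (SE 0.331, interval -0.02 to 1.52, limma adjusted p = 1), with the smallest unadjusted p of the 10 by limma at 0.0541. Lyz2 averaged 225.8 ± 224 FPM in KO and 82.3 ± 106 FPM in WT (SD, n = 3 each), a log2 change of 0.96 with an interval of -0.19 to 2.11. The other changes were 0.55 for C1qc, 0.49 for Adgre1, 0.44 for C1qb, 0.44 for Spic, 0.42 for Csf1r, 0.41 for Vcam1 and 0.32 for Cd5l, all with limma adjusted p = 1. The intervals of these 10 genes include 0 and reach between 1.13 (Cd5l) and 2.11 (Lyz2), so that differences of more than 2-fold in favour of KO lie within them.

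The median log2 change of the 10 genes was 0.47, against 0.01 for all genes tested, of which 54.4% were positive. The number of genes with KO libraries all above or all below the WT libraries was 0 of the 10, beside 2.88% of genes tested. Within series 22 the difference of KO 1 from the mean of WT 1 and WT 2 was 0.59 (Cd5l) to 1.63 (Lyz2), with KO 1 above both WT libraries for all 10 genes and 53.0% of genes tested. Within series 24 the difference of the mean of KO 4 and KO 5 from WT 4 was -0.17 (Vcam1) to 0.29 (Lyz2), with KO 4 below and KO 5 above WT 4 for all 10 and 20.1% of genes tested. Medians were 1.001 in series 22 and -0.02 in series 24, beside 0.12 and -0.08 over all genes tested. Without WT 1 the median of the 10 was 0.24, with changes of 0.075 (Cd5l) to 0.80 (Lyz2), 0 called and limma adjusted p = 1 for each. Without KO 1, the only KO library of series 22, 5 of the 10 changes turned negative. A test of whether the genotype difference differed between the series passed for 0 of the 10 and for 0.0% of genes (limma adjusted p = 0.678 to 0.773 for the 10; 369 of all genes and 0 of the 10 at an unadjusted p under 0.05).

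**Figure D3:**
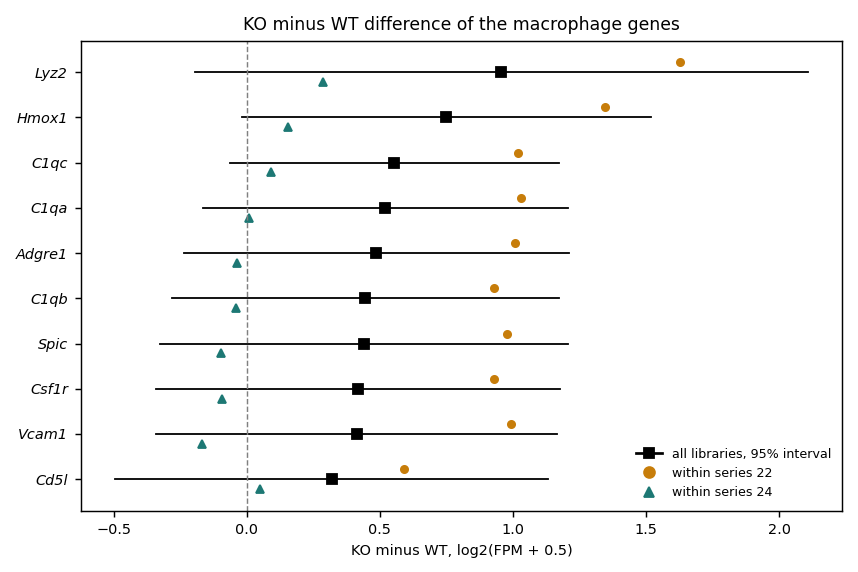
Log2 difference KO minus WT (horizontal axis, log2 of FPM + 0.5) for the 10 genes, listed down the page by size. Squares with lines are the fit over 6 libraries with its 95% interval, circles the difference within series 22 and triangles that within series 24; the circles lie at 0.59 to 1.63 and the triangles at -0.17 to 0.29.

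Other genes of splenic macrophages were read from a list of 13 red pulp markers that held none of the 10. Of the 13, 0 were called, 12 had a positive change and 1 a negative one, with a median of 0.43. All 13 were highest in KO 5 and 12 were lowest in WT 1, beside 15.2% and 44.9% of genes tested. Of the 13 T cell markers, 0 were highest in KO 5 and 11 were lowest in WT 1, so that the low place of WT 1 is not particular to macrophage genes. Fcna, which encodes ficolin A, a lectin of the complement system, measured 86.8, 93.7 and 123.3 FPM in the KO libraries, against 29.8, 57.6 and 99.3 FPM in the WT libraries. Slc40a1, the iron exporter ferroportin, measured 174.3, 142.9 and 296.8 FPM in the KO libraries, against 86.6, 109.0 and 249.4 FPM in the WT libraries. Clec4n, a lectin that recognises fungal sugars, measured 28.1, 25.8 and 46.5 FPM in the KO libraries, against 10.1, 22 and 32.5 FPM in the WT libraries. Fcna ranged 1.16-fold relative to the C1q sum, whereas Slc40a1 ranged 1.64-fold.

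Marginal zone and metallophilic macrophages are other macrophages of the spleen. Of 8 markers of theirs, 6 of which other lists hold as well, 6 passed the filter, with 0 called and a median log2 change of 0.22. Cd209b, which marks marginal zone macrophages, measured 0.2 to 0.4 FPM in KO libraries and 0.0 to 1.2 FPM in WT libraries. Marco, a scavenger receptor, measured 4.7 to 10.1 FPM in KO libraries and 3.5 to 5.3 FPM in WT libraries. Siglec1, of metallophilic macrophages, measured 3.7 to 11.0 FPM in KO libraries and 3.0 to 7.4 FPM in WT libraries. These 3 genes were chosen after their values were seen, and they are not the highest of the list. The 3 tested genes of highest level per kb were Clec4n, Lgals3bp and Nr1h3, with means of 27.5, 28.7 and 14.4 FPM. Clec4n is also on the red pulp list. The whole list summed to 75.0 to 130.1 FPM in KO libraries and 44.7 to 97.2 FPM in WT libraries.

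The 12 monocyte markers varied more in proportion to C1q than the red pulp markers. Their ratio to the C1q sum ranged by a median of 3.75-fold over the libraries, against 1.41-fold for the 13 red pulp markers. The C1q sum itself ranged 3.82-fold, which a gene of constant level would give as well. For the T cell markers the median was 3.61-fold, so that such a ratio range is not particular to monocyte genes. None of the monocyte markers was called, 12 of 12 had a positive change and their median log2 change was 0.42. Plac8 measured 19.2, 14.7 and 55.7 FPM in the KO libraries, against 8.9, 21.8 and 25.1 FPM in the WT libraries. Ly6c2, the Ly6C antigen of classical monocytes and also of some T cells, measured 39.2, 25.9 and 47.9 FPM in the KO libraries, against 20.5, 40.4 and 37.3 FPM in the WT libraries, which is another order than that of Lyz2.

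Chil3, which encodes the chitinase-like protein Ym1, measured 7.0, 14.3 and 87.4 FPM in KO 1, KO 4 and KO 5, against 4.4, 3.5 and 25.3 FPM in WT 1, WT 2 and WT 4. Fn1, the fibronectin gene, measured 8.8, 21.7 and 81.7 FPM in the KO libraries, against 9.3, 3.9 and 31.0 FPM in the WT libraries. F13a1, the gene of coagulation factor XIII subunit A, measured 11.1, 21.1 and 76.5 FPM in the KO libraries, against 7.7, 7.5 and 33.5 FPM in the WT libraries. Fn1 and F13a1 were chosen after their values were seen. KO 5, WT 4 and KO 4 were the 3 highest libraries for these genes, in that order, as for Lyz2. Plac8 and Ly6c2 did not share that order, nor did Ccr2, Cd14, Cx3cr1 and Nr4a1 of the same list, which are named here for that reason. The receptor gene rate of WT 1 would account for 37.8% of Fn1, 26.4% of F13a1 and 11.2% of Chil3 in that library, against 2.09% of Lyz2. S100a9, a calcium-binding protein gene of neutrophils, had another order, though KO 5 was highest there too. It measured 7.4, 2.1 and 45.2 FPM in the KO libraries, against 7.1, 22.9 and 6.8 FPM in the WT libraries, and the neutrophil antigen gene Ly6g, chosen after its values were seen, was at most 0.5 FPM in both groups. The summed neutrophil list was 17.8 to 126.0 FPM in KO and 35.9 to 76.3 FPM in WT, highest in KO 5 and lowest in KO 4. Of its 8 tested genes 3 were positive and 5 negative, with 0 called. The part of monocytes or neutrophils in the Lyz2 values was not tested.

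**Figure D4:**
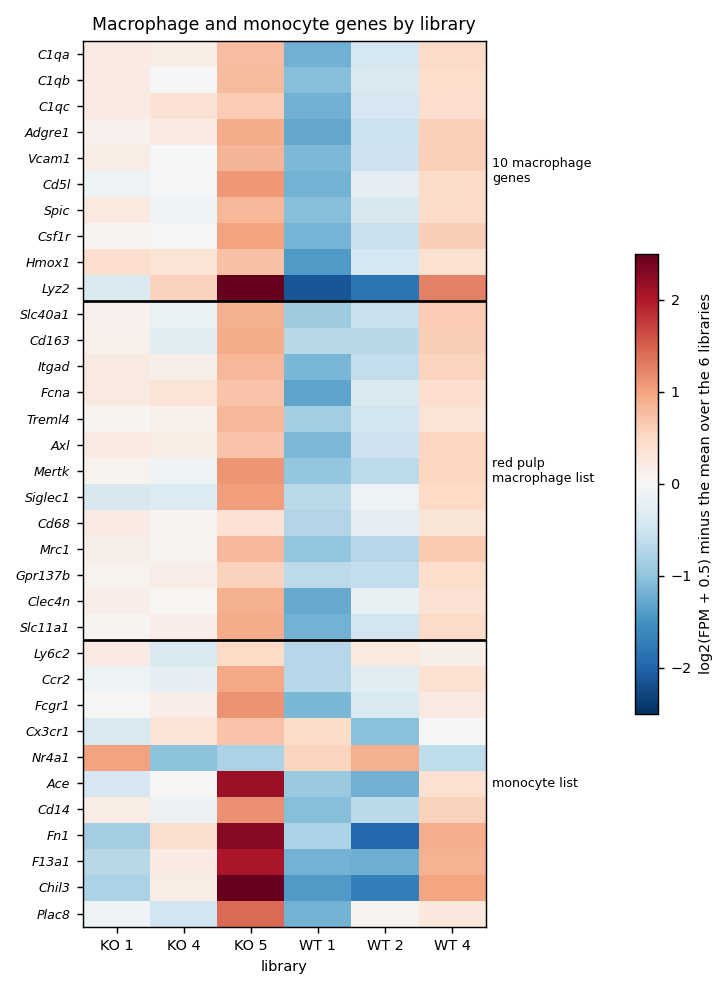
Log2 of FPM + 0.5 minus its mean over the 6 libraries (colour) for the 10 macrophage genes, the other genes of the red pulp list and those of the monocyte list that are in neither (rows), in the KO and then the WT libraries (columns). Fcna and Axl follow the C1q genes closely, and Lyz2, Fn1, F13a1 and Chil3 span a wider range, with KO 5 highest.

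Lists for the functions of these macrophages followed. Iron and haem handling gave 15 positive and 1 negative change among 16 tested genes, with 0 called and a median of 0.26. Ftl1 and Fth1, the ferritin chains that store iron and that T cells express as well, ranged 2.01-fold and 1.53-fold in level, and 2.27-fold and 3.04-fold relative to the C1q sum. Receptors and bridging proteins for apoptotic cells gave 12 positive and 4 negative changes among 16, with 0 called and a median of 0.13. Axl, a receptor tyrosine kinase for apoptotic cells, measured 91.2, 90.0 and 129.1 FPM in the KO libraries, against 35.9, 54.7 and 114.4 FPM in the WT libraries. Its relative Mertk ranged 4.27-fold, whereas Itgb3, an integrin chain, ranged 1.32-fold.

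Among the other complement genes, Cfp, which encodes properdin, the stabiliser of the alternative pathway convertase, measured 80.9, 89.7 and 130.2 FPM in the KO libraries, against 26.5, 53.7 and 103.8 FPM in the WT libraries. C1ra and C1s1, the genes of the proteases that C1q activates, measured at most 0.9 FPM in KO and at most 2.7 FPM in WT, where WT 1 was highest for both; they were chosen after their values were seen. Calr, the gene of the chaperone calreticulin, had another order, with 90.5, 40.8 and 61.8 FPM in the KO libraries, against 70.9, 81.8 and 66.6 FPM in the WT libraries. Of 11 complement genes tested 7 were positive and 4 negative, with 0 called and a median of 0.13. Fc receptors and their adaptors gave 9 of 9 positive changes, 0 called and a median of 0.40. Among them Tyrobp, the adaptor DAP12, measured 34.7, 37.9 and 72.8 FPM in the KO libraries, against 14.6, 23.2 and 47.7 FPM in the WT libraries. Lysosomal enzymes and other lysosomal proteins ranged less, by a median of 1.80-fold over 17 genes, with 16 positive, 0 called and a median change of 0.20. Of the 17, 2 reached a 4-fold range, and all 17 were lowest in WT 1.

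Among transcription factors of the macrophage lineage Spi1, which encodes PU.1 and was chosen after its values were seen, measured 3.6, 3.2 and 8.4 FPM in the KO libraries, against 1.5, 2.7 and 4.5 FPM in the WT libraries. Nfe2l2, Cebpb and Bach1, the tested genes of that list with the highest level per kb, ranged 1.09-fold, 3.07-fold and 1.39-fold. Cebpb had another order than the macrophage genes, lowest in KO 4 and highest in KO 1. The list gave 11 positive and 2 negative changes among 13, with 0 called and a median of 0.16. The CSF1 ligands stood low, with Csf1 at 2.8 to 6.4 FPM in KO and 3.8 to 4.5 FPM in WT, and Il34 at most 0.1 FPM in KO and at most 0.5 FPM in WT, both chosen after their values were seen. Of the 5 genes of that list that were tested 4 were positive and 0 were called.

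Markers of other cell types were read for the same libraries. Of 6 lists for B, CD8 T and NK, dendritic, erythroid, platelet and stromal cells, none had both its highest sum in KO 5 and its lowest in WT 1. The higher receptor gene rate of WT 1 was not taken off these sums, so that for low lists the place of WT 1 is uncertain. B cell markers summed to 328.9 to 694.3 FPM in KO and 466.4 to 477.5 FPM in WT, most of it Ighm. Of 10 tested B cell markers 8 were positive, with a median of 0.15. CD8 T and NK cell markers summed to 122.6 to 162.0 FPM in KO and 117.4 to 153.7 FPM in WT, with 6 of 9 positive. Dendritic cell markers summed to 69.4 to 92.9 FPM in KO and 65.0 to 104.3 FPM in WT, most of it Bst2 and Ccr9, while Xcr1, Clec9a and Siglech were at most 1.9 FPM in KO and at most 2.6 FPM in WT. Stromal and endothelial markers summed to 23.4 to 35.4 FPM in KO and 15.9 to 37.7 FPM in WT, while the endothelial gene Cdh5 was at most 0.6 FPM in KO and at most 1.1 FPM in WT. Stab2, a scavenger receptor of sinus endothelium, made up most of that sum in every library but WT 1, with 16.0 to 31.1 FPM in KO and 8.5 to 23.4 FPM in WT. Its order was near that of the macrophage genes, with KO 5 and WT 4 highest and WT 1 and WT 2 lowest. Erythroid markers summed to 76.5 to 99.7 FPM in KO and 78.0 to 106.6 FPM in WT, of which most was Tfrc, and the 4 globin genes were listed at 0 in all libraries. Platelet markers summed to 14.4 to 26.2 FPM in KO and 12.1 to 22.6 FPM in WT. T cell markers had a median change of 0.09, with 12 of 13 positive. None of these lists had a called gene. Xcr1, Clec9a, Siglech and Cdh5 were chosen after their values were seen.

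**Figure D5:**
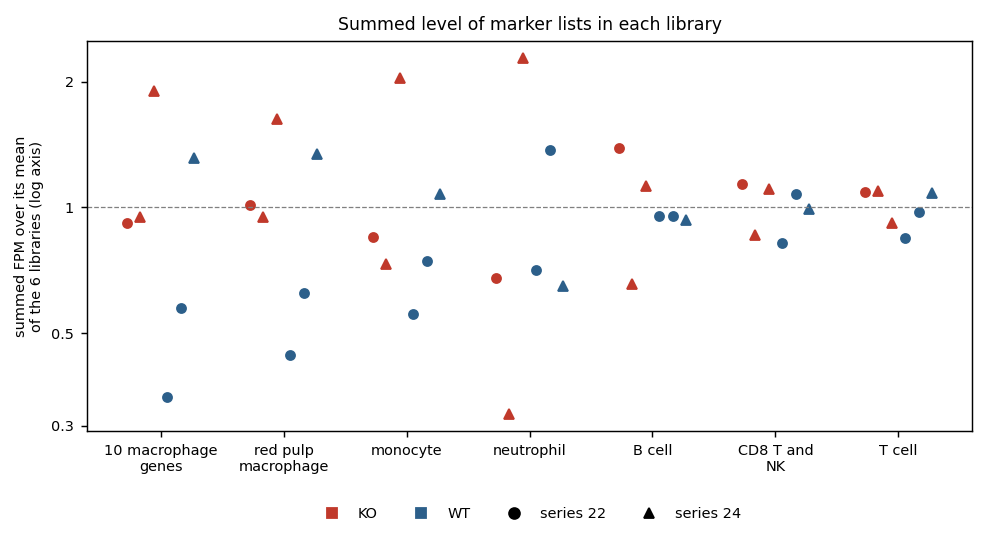
Summed FPM of each marker list over its own mean of the 6 libraries (vertical axis, log scale) in KO (red, left in each group) and WT libraries (blue); circles are series 22 and triangles series 24. The 10 macrophage genes summed to 877.9 to 1809 FPM in KO and 335.2 to 1253 FPM in WT, and T cell markers varied 1.30-fold.

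The genes outside the list whose library profile was most like the mean profile of the 10 were Slc11a1, Hebp1, Idh1, Slc7a7, Abcc3, Nr1h3, Itga9, Irf5, P2ry13 and Pla2g15. Likeness was Pearson's r on log2 values over the 6 libraries, among genes with a mean of at least 5 FPM and a range of at least 2-fold, and it was 0.994 to 0.999 for these 10. The points share scaling and library effects, and r reached 0.99 for 25 genes. Slc11a1, a metal transporter of the phagosome that is also on the red pulp list, measured 26.2, 27.8 and 47.7 FPM in the KO libraries, against 10.7, 17.8 and 35.0 FPM in the WT libraries. Hebp1 encodes a haem-binding protein and ranged 2.11-fold. Nr1h3 encodes LXRα, a sterol receptor of macrophages, and Irf5 an interferon regulatory factor of myeloid cells; Nr1h3 ranged 3.51-fold and Irf5 5.31-fold. Without WT 1, 0 of these 10 genes remained among the 10 most alike, and with Lyz2 left out of the profile 8 did. Without each of the other 5 libraries in turn 5 to 9 remained, so that the ranking depends on which libraries are used and changes most without WT 1.

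For the C1q mean alone the nearest genes were Abcc3, Slc7a7, Cfp, Axl and Ccr3, and for Lyz2 alone Clec12a, Tgfbi, Pcyox1, Ctsh and Rgl1. Abcc3, an export pump, measured 33.7, 35.6 and 53.5 FPM in the KO libraries, against 12.7, 22 and 43.7 FPM in the WT libraries. Tgfbi, a matrix protein gene active in monocytes, measured 20.1, 26.7 and 77.7 FPM in the KO libraries, against 9.9, 10.4 and 40.8 FPM in the WT libraries. The ratio of Abcc3 to the C1q sum ranged 1.11-fold and that of Tgfbi 3.33-fold.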

How the data were processed

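RNA of 3 Prmt5 KO and 3 WT samples of mouse CD4 T cells was sequenced from strand-specific, ribosomal RNA-depleted libraries, per the labels' protocols. The deposited values are robust FPM, fragments per gene scaled by the authors, treated here as RPM and rounded to 1 decimal, so that whole reads and depth were not recovered. STAR, featureCounts, DESeq2, DESeq and build GRCm38.p3 appear, without roles, per the submitters' processing notes. Another 6 columns, whose names carry act in place of rest, matched none of the samples and were not used. The 92 ERCC spike-in rows were left out. Symbols were matched for 54409 of 54532 gene rows, and lengths and coordinates came from GENCODE on GRCm38.

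Genes with a mean of at least 1 (14944) were fitted as log2(value + 0.5), a scale that understates changes of low genes, with terms for library series and genotype in limma 3.58.1 (R 4.3.3, mean-variance trend, two-sided, Benjamini-Hochberg over all genes, called below 0.05). Replicates are biological per the design text. The p-values weigh the KO minus WT difference against the spread between these samples that remains after the series term.

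The members, the other lists and the tests were chosen with earlier results of these data known. Per list, the 3 tested genes of highest level per kb could be named, with others stated as chosen after their values were seen. Levels are compared between genes only per kb of exon.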

Additional observations from a re-analysis of the deposited data

How the results depend on the processing

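The 10 macrophage genes had 0 calls and a positive change in each of the other fits to all 6 libraries (pseudocounts 0.1 and 1, no filter, a mean of at least 5, no series term, a replicate block, 3 scalings, no trend and robust moderation), and in the fits that left out 1 library except that without KO replicate 1. Without KO 1 the log2 changes of Adgre1 (-0.037), C1qb (-0.039), Csf1r (-0.094), Spic (-0.096) and Vcam1 (-0.17) turned negative, since series 24 alone then carries the comparison. Over the fits leaving out 1 library, the change ran from -0.037 to 1.01 for Adgre1, -0.039 to 0.93 for C1qb, -0.094 to 0.93 for Csf1r, -0.096 to 0.98 for Spic and -0.17 to 0.99 for Vcam1, and the median of the 10 from -0.02 to 1.001, highest without WT 4. Without the series term Lyz2 stood at 1.81. ERCC scaling moved the all-gene median to -0.20, beside 0.10 to 0.74 for the 10 genes.

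Over all genes, the replicate block, which pairs the 2 numbers present in both groups (1 and 4), called 1 higher and 4 lower genes and none of the 10, against 0 otherwise. Same-numbered libraries did not deviate together (r = -0.16 and -0.41), so that the numbers are not taken as pairs. Genes whose KO and WT values did not overlap numbered 651 with each library scaled to the same gene sum, 628 with median-of-ratios scaling and 106 with ERCC scaling, against 431. The cause was not tested. The Lyz2 to C1q ratio without KO 5 or WT 1, and the genes most alike without each library other than WT 1, were added after seeing the data. Depth is unknown, and low genes are limited by the rounding.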
